A study of Arabidopsis thaliana with 12 samples.

Results

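The comparison described here sets leaves of the *pGlcT2* overexpressor, line #5, against leaves of wild types after growth in continuous light. Messenger RNA was measured by RNA sequencing, and each gene has a deposited FPKM value, the fragments counted per length of gene and per size of library, in every library. Genes counted as expressed when 4 or more of the 8 overexpressor and wild-type libraries reached 1 FPKM, which took 18021 of the 32954 genes in the table, whereas 25264 were above 0 in at least 1 of the 8. *Arabidopsis thaliana* plants of ecotype Col-0 grew for 24 days in short days and were then moved to continuous light of 100 to 120 μmol quanta per square metre and second for 10 to 12 days. The first group carried the *pGlcT2* coding sequence behind the cauliflower mosaic virus 35S promoter in pK2GW7, which drives expression in most cell types, and is a single transgenic line (4 libraries). The second group was wild type (4 libraries). The 4 libraries of the T-DNA knock-out *glct2* from the same experiment entered the model for the spread and serve below only to test where the overexpressor differed from that mutant. In its account of the lines the study says that overexpressors were raised from *glct2*, its methods name that background only for the complemented line, and the labels give no background beside the overexpression, so the genotype at the endogenous *pGlcT2* locus of line #5 is not settled by these sources. The libraries are labelled as biological replicates without the number of plants in each, so p-values measure the spread between these libraries.

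pGlcT2 is a glucose carrier of the inner chloroplast envelope. Glucose in the chloroplast comes mostly from starch breakdown, and carriers in the envelope pass it to the cytosol, where hexokinase phosphorylates it. Leaf cells read their sugar supply through hexokinase, trehalose phosphate and the kinase SnRK1, and sugar-rich leaves are known to make anthocyanins and to lower transcripts of photosynthesis and of sugar starvation. *pGlcT2* (At1g05030, chromosome 1, 1438048 to 1441933, minus strand, TAIR10) had 193, 180.3, 215 and 237 FPKM in the overexpressor, against 9.39, 10.1, 8.26 and 9.48 FPKM in wild types. All 4 overexpressor libraries stood far above all 4 wild-type libraries and the groups did not overlap. The overexpressor mean was 206 ± 25.1 FPKM, against 9.31 ± 0.771 FPKM in wild types (SD, n = 4 each), and *glct2* had 3.09 ± 0.554 FPKM. The log2 fold change over wild types was 4.33 (SE 0.11, limma, adjusted p = 3.9e-10). Fold changes here are always the overexpressor over wild types unless *glct2* is named, and each is a difference of mean log2(FPKM + 1).

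The libraries held 17448191 to 22477845 reads in the overexpressor and 19035449 to 24276381 in wild types, recovered from the FPKM steps, so 1 read in a gene of 1 kilobase was worth 0.0425 to 0.0553 FPKM. None of 11 root markers reached the expression minimum, and their summed FPKM was 1.39 to 2.42 in the overexpressor and 0.647 to 0.907 in wild types. Of 10 flower markers only *SOC1* and *FUL*, which act in the floral transition, were above the minimum, and the organ identity genes among them were not. The 4 mesophyll markers, of which 3 were called lower, had a summed level between 10216 and 14206 FPKM in overexpressor libraries, against 23788 to 34207 FPKM in wild-type libraries, and among all tested genes 18.9% were called higher and 19.9% lower. Among 11 markers of dividing cells *TSO2* was called higher and none lower, and this 1 rise became 2 without overexpressor library 3. Among 12 tested phloem and xylem markers 3 were higher, 8 without overexpressor library 2, and 1 was lower, 0 without overexpressor library 1 or wild-type library 4. Of 7 guard cell markers *MYB60* and *GASA9* were lower and none higher, and the list summed to between 21.4 and 40.1 FPKM in overexpressor libraries, against 46.7 to 78.7 FPKM in wild-type libraries. That count of 2 was 4 without overexpressor library 2, and 1 without any other overexpressor library or without wild-type library 3 or 4. Of 5 tested epidermis and trichome markers *ATML1* and *FDH* were lower and none higher, and the list summed to between 120 and 135 FPKM in overexpressor libraries, against 138 to 203 FPKM in wild-type libraries. In RNA from whole leaves, fewer cells of a type and less RNA per cell cannot be told apart, and the part that such shifts have in any result below was not tested.

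The overexpressor differed from wild types in 38.8% of the tested genes. At an adjusted p below 0.05 (limma, Benjamini and Hochberg over all 18021 genes), 3408 genes rose and 3593 fell, which is 18.9% and 19.9% of the genes tested. These shares are the background for every count of list and family members given below. Most of these changes were small: 80.6% of all tested genes lay within a log2 fold change of 0.5 either way, 1444 called genes rose and 1780 fell by at least 0.5, 444 rose and 658 fell by at least 1, and 36 rose and 19 fell by at least 3. Over all tested genes the median log2 fold change was 0.004, with quartiles at -0.20 and 0.21. The genes that rose held 21.8 to 26.0% of the summed FPKM in the overexpressor libraries and 11.2 to 14.4% in the wild-type libraries, and those that fell held 21.8 to 25.6% in the overexpressor libraries and 37.1 to 42.7% in the wild-type libraries. The 50 most abundant genes took 12.1 to 12.5% of the recovered reads in the overexpressor and at least 15.4% in every wild-type library. Without overlap between the 4 and 4 libraries were 2899 genes higher in the overexpressor (16.1% of the tested) and 3348 lower (18.6%). When the recovered reads were scaled to their plain totals instead (limma voom), the median log2 fold change moved to 0.14, 5750 genes were called higher and 2382 lower, and no gene called in both settings changed its direction.

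**Figure D1:**
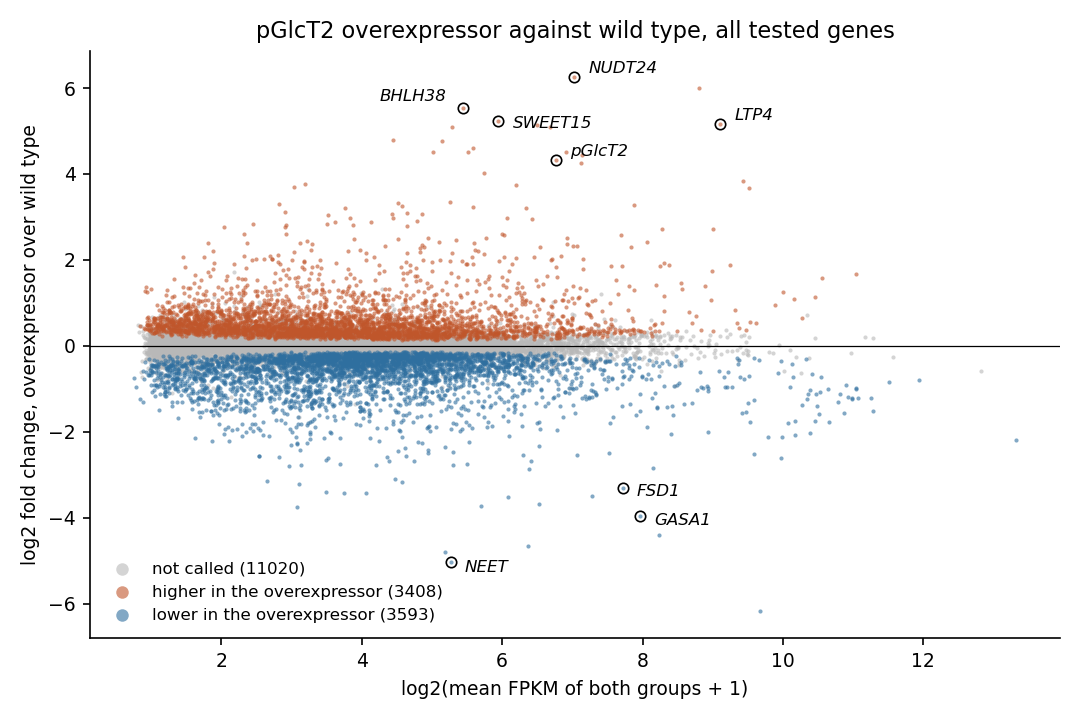
Log2 fold change of the overexpressor over wild types (y axis) against the mean level of both groups as log2(FPKM + 1) (x axis), 1 point per tested gene. The 3408 genes called higher and the 3593 called lower lie at all levels of expression, and the circled genes reach from 6.25 for *NUDT24* to -5.03 for *NEET*.

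Outside photosystem and starch genes, the largest rises among described genes with a group mean of at least 5 FPKM and without overlap included iron, sulfur, defensin-like and lipid transfer genes. *NUDT24*, which encodes a Nudix hydrolase, had 299.9, 347, 225 and 154 FPKM in the overexpressor, against 2.51, 5.46, 1.999 and 0.622 FPKM in wild types, a log2 fold change of 6.25 (SE 0.35, adjusted p = 5.8e-07). Every overexpressor library lay far above the highest wild-type library. The gene of defensin-like protein 287 (At1g13609) had 1042, 1076, 939 and 446 FPKM in the overexpressor, against 4.19, 19.1, 21.2 and 10.9 FPKM in wild types, and that of the neighbouring defensin-like protein 288 (At1g13608) had 20.5, 18.6, 16.3 and 9.03 FPKM in the overexpressor, against 0.174, 0.06898, 0.277 and 0.313 FPKM in wild types. Both rose, by 6.01 and 3.77 on the log2 scale (adjusted p = 1.5e-06 and 3.8e-07), and the second was close to 0 in wild types. *GPT2*, the glucose phosphate importer of plastids, averaged 199 ± 42.5 FPKM in the overexpressor and 5.41 ± 3.09 FPKM in wild types (log2 fold change 5.10, adjusted p = 1.2e-06). *HIPP24*, a heavy metal-associated isoprenylated protein, had 55.1, 19.5, 76.7 and 119 FPKM in the overexpressor, against 1.48, 2.54, 0.824 and 0.222 FPKM in wild types, and the lowest overexpressor library was still above the highest wild-type library (log2 fold change 4.77, adjusted p = 1.5e-05).

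Outside photosystem and starch genes, the largest falls under the same limits included defence and growth genes. *NEET*, an iron-sulfur protein of plastids and mitochondria, had 0.458, 3.55, 0.297 and 1.69 FPKM in the overexpressor, against 73.5, 43.5, 78.9 and 97.98 FPKM in wild types. Overexpressor libraries 1 and 3 were below 0.5 FPKM, and the log2 fold change was -5.03 (SE 0.50, adjusted p = 1.7e-05). The gene of probable thionin-2.4 (At1g66100), a small antimicrobial peptide, had 0.858, 6.98, 0.723 and 0.508 FPKM in the overexpressor, against 63.9992, 71.4, 84.1 and 55.8 FPKM in wild types (log2 fold change -4.79, adjusted p = 6.4e-06), with overexpressor library 2 above the other overexpressor libraries but far below wild types. *GASA1*, a gibberellin-regulated peptide, had 55.7, 30.7, 21.2 and 9.94 FPKM in the overexpressor, against 282, 192, 848 and 558 FPKM in wild types, and *RL2* (At2g21650), a MYB-related protein, had 0, 0.274, 0 and 0.0693 FPKM in the overexpressor, against 19.7, 5.91, 16.3 and 17.2 FPKM in wild types. *RL2* had 5 reads in the 4 overexpressor libraries together and 877 in the 4 wild-type libraries. Both genes fell without overlap (log2 fold changes -3.96 and -3.75, adjusted p = 9.0e-05 and 7.5e-06). *DTX18*, a transporter of defence phenolics, averaged 1.03 ± 1.17 FPKM in the overexpressor and 19.3 ± 9.599 FPKM in wild types, and *BG3*, a beta-glucanase of the pathogen response, averaged 1.29 ± 0.505 FPKM in the overexpressor and 23.56 ± 6.08 FPKM in wild types. The lectin-like genes *LLP* and At3g16530 fell, with log2 fold changes of -3.69 and -3.52, the metal resistance gene *PCR1* with -3.49 and the acid phosphatase gene At5g44020 with -3.74 (adjusted p = 3.5e-06, 2.6e-04, 2.7e-05 and 2.6e-05). *MSRB6*, a methionine sulfoxide reductase, *XTH25*, a xyloglucan enzyme, *GASA9* and the transmembrane protein gene At5g44568 completed the 15 largest falls within these limits, with log2 fold changes between -3.11 and -3.21.

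The iron-deficiency regulators rose and the iron-storage genes fell. In leaves short of iron, the bHLH factors of subgroup Ib and the ubiquitin ligase BTS are known to be induced, while ferritins, which store iron, and the iron superoxide dismutase are known to be repressed. Of 30 tested members of the iron list 15 rose and 12 fell (median log2 fold change 0.38). *BHLH38* (chromosome 3, 21084035 to 21085245, minus strand) had 93.0022, 100.2, 95.6 and 49.2 FPKM in the overexpressor, against 0.562, 1.01, 0.6503 and 0.873 FPKM in wild types. All overexpressor libraries were far above all wild-type libraries, although overexpressor library 4 was lower than the other 3. The ratio of the means was 109 (log2 fold change 5.54, SE 0.21, adjusted p = 2.1e-08). Its neighbour on the same strand, *BHLH39*, had 49.4, 58.8, 40.1 and 16.7 FPKM in the overexpressor, against 0.182, 0.397, 0.796 and 0.245 FPKM in wild types, and *BHLH100* had 83.0018, 110.0, 69.3 and 37.6 FPKM in the overexpressor, against 0.4298, 2.09, 1.596 and 0.644 FPKM in wild types (log2 fold changes 4.79 and 5.09). The order of the overexpressor libraries was alike in the 3 genes, with library 2 highest and library 4 lowest, and no library overlapped with wild types. *BTS* averaged 164 ± 33.9 FPKM in the overexpressor and 40.3 ± 7.36 FPKM in wild types, and *ORG1*, which encodes a plastid protein, averaged 221 ± 34.5 FPKM in the overexpressor and 44.02 ± 9.67 FPKM in wild types (log2 fold changes 2.00 and 2.31). *FIT*, the partner of these factors in root iron uptake, was near the expression minimum and fell, with 1.61 ± 0.419 FPKM in the overexpressor against 3.64 ± 0.9604 FPKM in wild types (log2 fold change -0.83, adjusted p = 0.0028).

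The ferritin gene *FER1* had 16.2, 16.6, 25.7 and 30.9 FPKM in the overexpressor, against 159.6, 142, 112 and 172.6 FPKM in wild types, and *FER4* had 5.27, 7.24, 4.67 and 7.48 FPKM in the overexpressor, against 42.6, 29.8, 43.3 and 49.3 FPKM in wild types. Both were lower in each overexpressor library than in each wild-type library (log2 fold changes -2.69 and -2.56, adjusted p = 5.5e-06 and 4.8e-06). *FSD1*, the iron superoxide dismutase, had 32.7, 45.9, 31.3 and 38.1 FPKM in the overexpressor, against 463, 254, 341 and 470.4 FPKM in wild types, a log2 fold change of -3.31 (adjusted p = 1.1e-06). The copper and zinc superoxide dismutase *CSD2* fell as well, with a log2 fold change of -1.08. Against *glct2*, 5 members of the list were higher and 5 lower in the overexpressor, beside 16.2% and 17.7% of all tested genes. The same shares of all tested genes are the background for each later count against *glct2*. *BHLH100*, *BHLH39* and *BTS* did not pass that test (log2 differences 0.37, 0.57 and 0.26, SE 0.32, 0.31 and 0.15, adjusted p = 0.39, 0.18 and 0.19), whereas *FER4* and *NEET* were lower than in *glct2* (adjusted p = 0.0072 and 0.0063). The 250 bases before the annotated start of *BHLH38* (chr3:21085246-21085495, minus strand, TAIR10.1) are shown because it is the most raised factor of the group and because they hold 1 G-box, a site of bHLH and bZIP factors, in capitals:
BHLH38: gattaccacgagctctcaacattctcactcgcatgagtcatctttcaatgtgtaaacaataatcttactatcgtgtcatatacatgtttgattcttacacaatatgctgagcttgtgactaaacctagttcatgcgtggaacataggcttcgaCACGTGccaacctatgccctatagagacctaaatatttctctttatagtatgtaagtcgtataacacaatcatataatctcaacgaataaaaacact
The G-box, CACGTG, starts 97 bases before the gene. It was found in 26.7% of the list's promoter windows and in 9.09% of all windows searched, which is a match of letters and not a measured binding site.

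Genes of sulfur deficiency rose together. When sulfate is short, leaves are known to induce *SDI* and *LSU* genes, sulfate carriers and enzymes that recycle glutathione. Of 16 tested members 11 rose and 2 fell, with a median log2 fold change of 1.08. *SDI1*, which restrains glucosinolate synthesis, had 316, 352, 247 and 128 FPKM in the overexpressor, against 12.2, 35.5, 8.48 and 4.75 FPKM in wild types (log2 fold change 4.27, SE 0.47, adjusted p = 3.3e-05). *LSU1* had 139.6, 168, 143 and 89.5 FPKM in the overexpressor, against 8.61, 20.01, 7.69 and 4.66 FPKM in wild types, and its relative *LSU2* had 122, 149, 98.1 and 70.9 FPKM in the overexpressor, against 25.9, 43.6, 25.8 and 19.9 FPKM in wild types. In all 3 genes library 2 was the highest of both groups, and the groups did not overlap. The vacuolar sulfate exporter *SULTR4.2* averaged 28.7 ± 2.30033 FPKM in the overexpressor and 7.204 ± 1.83 FPKM in wild types (log2 fold change 1.88, adjusted p = 1.2e-06). The carrier *SULTR1.2* and the serine hydroxymethyltransferase *SHM7* rose by 1.42 and 2.08 on the log2 scale. The members that fell were *SIR*, sulfite reductase (87.8 ± 3.21 FPKM in the overexpressor against 163 ± 9.23 FPKM in wild types, adjusted p = 2.1e-06), and *ATPS1*, ATP sulfurylase. Compared with *glct2*, 7 members were higher and 3 lower in the overexpressor. *SDI1* and *LSU1* were among the higher ones (adjusted p = 0.03 and 0.036), and *LSU2* and *SULTR1.2* did not pass (adjusted p = 0.16 and 0.51, log2 differences 0.45 and 0.19, SE 0.24 and 0.21).

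**Figure D2:**
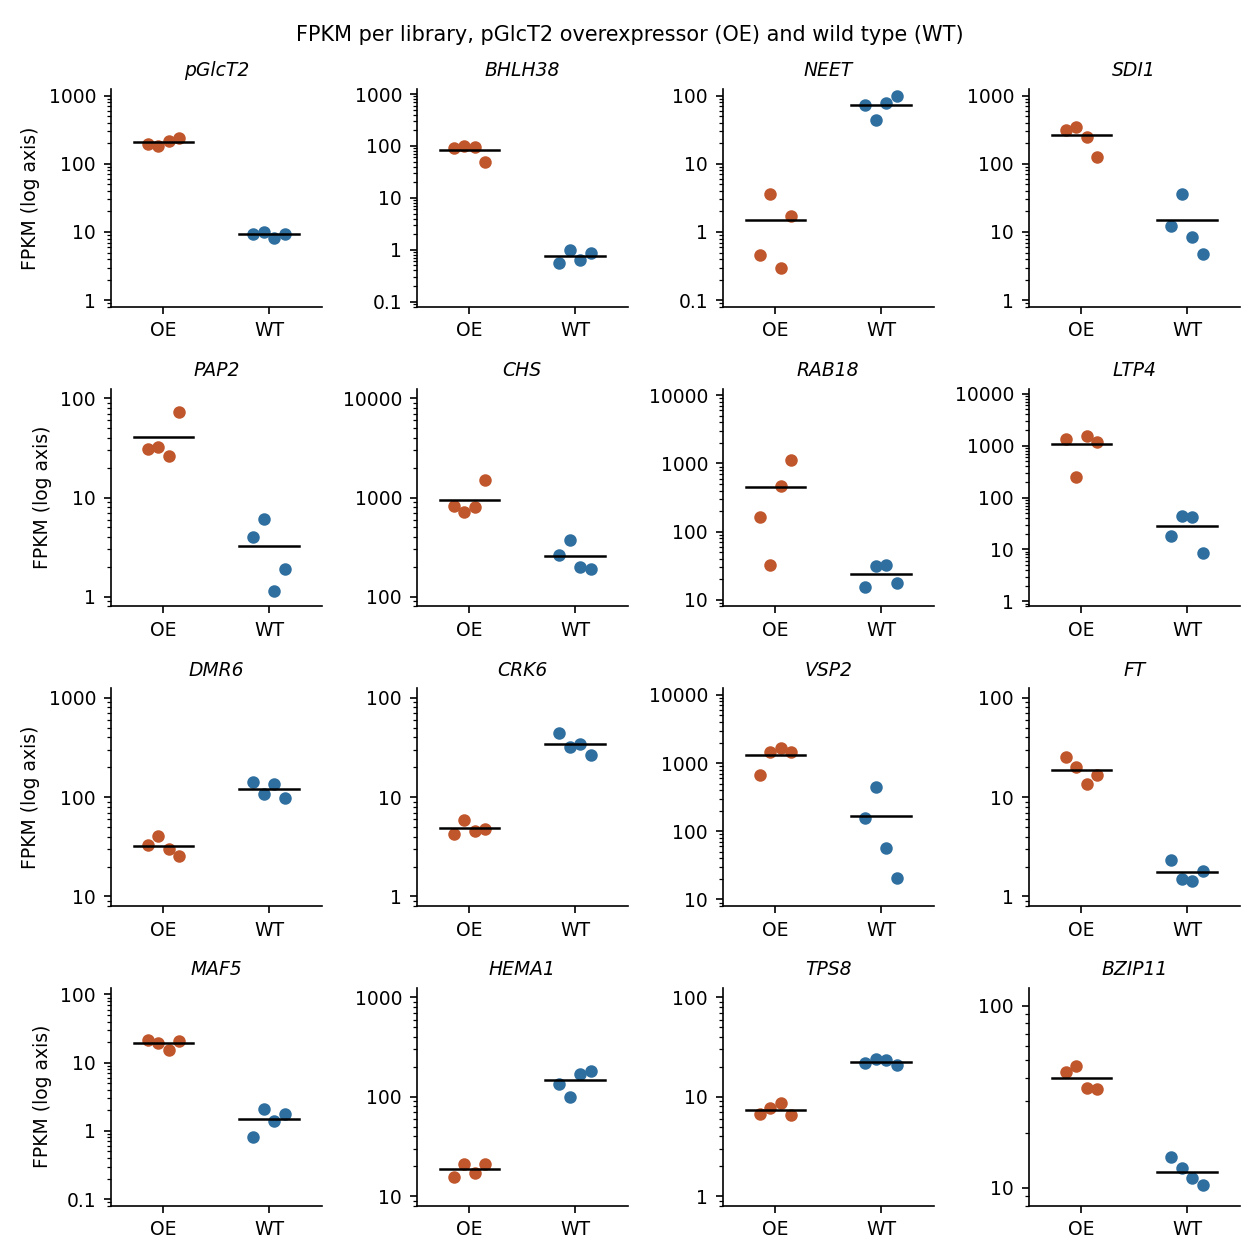
FPKM on a log axis in each library for 16 genes, with the 4 overexpressor libraries on the left and the 4 wild-type libraries on the right of each panel and a bar at the group mean. Groups are apart in every panel but that of *RAB18*, where the overexpressor libraries spread over 166, 32.6, 471 and 1109.8 FPKM, against 15.2, 31.3, 32.7 and 17.9 FPKM in wild types.

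Almost the whole phenylpropanoid, flavonol and anthocyanin pathway rose. Of 26 tested members 24 rose, 1 fell and 1 was not called, and the median log2 fold change was 1.86. *PAP1* and *PAP2* are MYB factors that switch on anthocyanin genes. *PAP2* had 31.1, 32.3, 25.9 and 73.2 FPKM in the overexpressor, against 3.97, 6.13, 1.14 and 1.88 FPKM in wild types and *PAP1* had 87.7, 98.7, 73.2 and 103 FPKM in the overexpressor, against 16.5, 32.2, 10.3 and 8.65 FPKM in wild types. Overexpressor library 4 was highest in both, and the groups did not overlap (log2 fold changes 3.31 and 2.52, adjusted p = 4.7e-05 and 8.5e-05). Their bHLH partner *TT8* averaged 21.8 ± 3.56 FPKM in the overexpressor and 4.22 ± 2.35 FPKM in wild types, and the flavonol regulator *MYB111* averaged 12.9 ± 1.18 FPKM in the overexpressor and 2.95 ± 0.934 FPKM in wild types. Chalcone synthase, *CHS*, the entry enzyme of flavonoids, had 817, 712, 795 and 1492 FPKM in the overexpressor, against 266, 371, 199 and 191 FPKM in wild types (log2 fold change 1.88, adjusted p = 1.2e-04). The enzymes after it rose too, with *CHI* at 1.56, the chalcone isomerase-like *CHIL* at 2.29, *DFR*, dihydroflavonol reductase, at 2.41 and the anthocyanin xylosyltransferase *UF3GT* at 2.95 on the log2 scale (adjusted p = 5.1e-06, 1.0e-05, 1.7e-04 and 3.3e-05). The member that fell was *TTG1*, the WD40 protein of the same complex, with 21.5, 19.98, 18.22 and 16.7 FPKM in the overexpressor, against 35.7, 33.3, 34.6 and 31.3 FPKM in wild types (log2 fold change -0.79, adjusted p = 9.3e-06). In the contrast with *glct2*, 20 members were higher in the overexpressor and 1 lower. *DFR* did not pass that test (log2 difference 0.76, SE 0.34, adjusted p = 0.099). The promoter of *PAP2* (chr1:24763691-24763940, plus strand) has a G-box 46 bases before the start, in capitals, and is shown as that of the most raised regulator of the pathway:
PAP2: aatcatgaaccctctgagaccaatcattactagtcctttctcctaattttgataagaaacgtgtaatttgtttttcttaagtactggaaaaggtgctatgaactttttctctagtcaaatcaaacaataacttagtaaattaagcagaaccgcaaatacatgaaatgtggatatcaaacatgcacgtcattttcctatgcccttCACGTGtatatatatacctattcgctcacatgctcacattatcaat
Of the list's windows 30.8% held a G-box. High shares were not limited to lists that rose. Among lists with more falls than rises it stood in 47.6% of the clock, 30.8% of the heat shock and 20% of the Calvin cycle windows. The salicylic acid list had it in 3.85% and the indole glucosinolate list in 0% of windows.

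Genes of dehydration and abscisic acid were high in some overexpressor libraries and not in others. Of 26 tested members of the cold and abscisic acid list 13 rose and 3 fell (median log2 fold change 0.72). Only *ABI2* and *HAI2* of the 13 had libraries without overlap, whereas 5661 of the 7001 genes called in all did. The dehydrin *RAB18* had 166, 32.6, 471 and 1109.8 FPKM in the overexpressor, against 15.2, 31.3, 32.7 and 17.9 FPKM in wild types. Library 2 of the overexpressor was within the range of wild types, whereas library 4 was far above them (log2 fold change 3.28, SE 0.79, adjusted p = 0.0063). *RD29B* had 6.45, 0.7802, 34.1 and 145 FPKM in the overexpressor, against 0.764, 1.799, 2.75 and 0.572 FPKM in wild types, and the antifreeze-like *COR15A* had 299, 226, 597 and 1135 FPKM in the overexpressor, against 92.5, 268, 133 and 237 FPKM in wild types. The same order of the overexpressor libraries returned, with 4 highest and 2 lowest and inside the wild-type range (log2 fold changes 2.80 and 1.46, adjusted p = 0.044 and 0.024). The phosphatases *HAI1* and *HAI2*, which are induced by abscisic acid and restrain its signal, averaged 51.2 ± 58.1 and 46.7 ± 27.5 FPKM in the overexpressor and 5.91 ± 2.97 and 8.44 ± 5.21 FPKM in wild types. The cold factor *CBF1* fell, with 0.2098, 0.164, 0.907 and 0.538 FPKM in the overexpressor, against 1.23, 2.02, 1.66 and 2.29 FPKM in wild types (log2 fold change -0.96, adjusted p = 0.0011). The summed FPKM of the list ran from 2101 to 8935 in the overexpressor and from 2362 to 3444 in wild types. The count of 13 became 5 without overexpressor library 3, 7 without overexpressor library 4, 5 without wild-type library 1, 7 without wild-type library 3 and 6 without wild-type library 4, and it was 5 when the 8 libraries were fitted alone. Without overexpressor library 4, *COR15A* and *RD29B* were no longer called, and *RD29B* lost its call in 12 of the alternatives in all. Against *glct2*, 14 members were higher and none was lower.

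Single lipid transfer, wax and stress genes rose, while the lipid list as a whole went both ways. *LTP4*, a lipid transfer protein, had 1348, 252, 1530.2 and 1158 FPKM in the overexpressor, against 18.3, 44.1, 43.02 and 8.56 FPKM in wild types, and *LTP3* had 1035, 307, 1448 and 2439.7 FPKM in the overexpressor, against 48.3, 135, 84.6 and 46.1 FPKM in wild types. Library 2 was the lowest of the overexpressor in both and still above every wild-type library (log2 fold changes 5.16 and 3.84, adjusted p = 3.4e-05 and 1.4e-04). A further gene of this protein superfamily, At2g37870, had 130.5, 9.53, 223 and 343 FPKM in the overexpressor, against 0.945, 3.82, 1.98 and 1.47 FPKM in wild types (log2 fold change 5.14). Its overexpressor library 2 was far below the other overexpressor libraries. The call for At2g37870 was lost when reads were fitted with limma voom at the deposited library sizes. In the list of fatty acid, wax and lipid transfer genes 11 of 31 rose and 8 fell (median 0.01), and 12 were not called. The wax enzymes *CER1*, *CER4* and *WSD1*, which make alkanes, alcohols and wax esters, rose by 1.97, 1.98 and 1.59 on the log2 scale (adjusted p = 2.6e-04, 1.4e-05 and 2.1e-04). Of the 5 tested epidermis and trichome markers 2 were lower and none higher. *SWEET15*, a sucrose exporter of senescing leaves and seeds, had 48.9, 6.19, 144 and 282 FPKM in the overexpressor, against 0.164, 0.3897, 3.39 and 0.0736 FPKM in wild types. The groups did not overlap, but overexpressor library 2 was far below the other 3 and close to wild-type library 3 (log2 fold change 5.22, SE 0.88, adjusted p = 6.4e-04), and the call was lost when reads were fitted with limma voom. *ELIP1*, a chlorophyll-binding protein of light stress, had 115, 68.5, 210.4 and 537 FPKM in the overexpressor, against 5.66, 7.55, 6.59 and 6.91 FPKM in wild types (log2 fold change 4.51, adjusted p = 1.8e-05). *SWEET15*, *ELIP1*, *LTP3* and *LTP4* were also higher than in *glct2*, by 5.18, 4.35, 3.22 and 3.42 on the log2 scale (adjusted p = 0.001, 5.9e-05, 7.9e-04 and 9.5e-04). The promoters of *ELIP1* (chr3:8085670-8085919, minus strand) and *COR15A* (chr2:17712331-17712580, minus strand) each hold 1 G-box, in capitals, 66 and 28 bases before the start, and are shown for comparison with *BHLH38* and *PAP2*, which share this motif:
ELIP1: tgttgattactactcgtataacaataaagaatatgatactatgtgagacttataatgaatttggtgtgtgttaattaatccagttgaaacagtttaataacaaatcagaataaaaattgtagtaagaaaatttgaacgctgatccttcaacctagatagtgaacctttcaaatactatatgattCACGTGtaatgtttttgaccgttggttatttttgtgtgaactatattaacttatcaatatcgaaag
COR15A: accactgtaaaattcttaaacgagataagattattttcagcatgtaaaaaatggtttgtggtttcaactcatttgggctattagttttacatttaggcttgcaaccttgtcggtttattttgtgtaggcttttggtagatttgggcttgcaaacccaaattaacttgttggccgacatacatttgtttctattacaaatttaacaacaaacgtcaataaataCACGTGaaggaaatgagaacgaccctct
The motif stood in 26.9% of the windows of the cold and abscisic acid list.

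Salicylic acid and defence genes fell almost without exception. Salicylic acid, made in the chloroplast by ICS1, acts through the NPR1 receptor and WRKY70 to switch on pathogenesis-related genes. Of 26 tested members 22 fell and none rose, and the median log2 fold change was -1.10. *ICS1* had 4.78, 6.03, 4.302 and 5.198 FPKM in the overexpressor, against 17.2, 12.8, 13.1 and 14.8 FPKM in wild types. It was lower in every overexpressor library than in every wild-type library (log2 fold change -1.35, adjusted p = 2.8e-04). *DMR6* and *DLO1*, which hydroxylate salicylic acid, averaged 32.3 ± 6.47 and 5.35 ± 2.03 FPKM in the overexpressor and 121 ± 21.2 and 27.4 ± 10.8 FPKM in wild types. *WRKY70* had 32.9, 47.8, 35.1 and 25.9 FPKM in the overexpressor, against 113, 85.2, 90.4 and 102 FPKM in wild types, and the factor *WRKY38* had 1.53, 1.75, 1.14 and 0.964 FPKM in the overexpressor, against 12.1, 5.54, 5.93 and 6.47 FPKM in wild types (log2 fold changes -1.46 and -1.81, adjusted p = 4.4e-05 and 9.7e-05). *NPR1* fell less, to 14.9 ± 0.969 FPKM in the overexpressor against 21.9 ± 1.13 FPKM in wild types (log2 fold change -0.53), and *SAG101*, a partner of EDS1 in immunity, was at 7.03 ± 0.168 FPKM in the overexpressor against 12.6 ± 0.571 FPKM in wild types. The antimicrobial gene *PR1* had 145, 18.3, 28.3 and 60.9 FPKM in the overexpressor, against 567, 259, 257 and 134 FPKM in wild types. Overexpressor library 1 overlapped with wild-type library 4, and the adjusted p was 0.013. Relative to *glct2*, 24 members were lower in the overexpressor and none higher.

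Receptors of the immune system fell too. Cysteine-rich receptor-like kinases, which sit in the plasma membrane and respond to pathogens and salicylic acid, fell in 25 of 29 tested genes and rose in 2 (median log2 fold change -0.78). *CRK6* had 4.27, 5.83, 4.52 and 4.75 FPKM in the overexpressor, against 43.9, 32.3, 33.9 and 26.8 FPKM in wild types, and *CRK4* had 13.99, 29.6, 11.5 and 9.59 FPKM in the overexpressor, against 82.5, 64.5, 86.1 and 64.3 FPKM in wild types. The groups did not overlap in either gene (log2 fold changes -2.58 and -2.25, adjusted p = 4.4e-06 and 9.2e-05). The 2 that rose, *CRK28* and *CRK29*, moved by 0.38 and 0.36. Of 67 genes with a TIR domain, the signalling part of many intracellular immune receptors, 43 fell and none rose, and of 53 with an NB-ARC domain, the nucleotide switch of such receptors, 31 fell and *AT4G19060* and *RPP8L3* rose. The TIR gene At3g04210 had 29.9, 40.8, 20.8 and 8.39 FPKM in the overexpressor, against 98.2, 76.2, 76.9 and 81.9 FPKM in wild types (log2 fold change -1.89, adjusted p = 0.0011), and the NB-ARC gene At5g45490 averaged 12.9 ± 1.44 FPKM in the overexpressor and 34.7 ± 6.64 FPKM in wild types. Of 489 genes with the protein kinase domain 159 were lower and 49 higher, and of 233 with the tyrosine kinase-like domain 113 were lower and 17 higher, with cysteine-rich kinases such as *CRK6* and *CRK4* among those counted. Among 34 genes with the leucine-rich repeat N-terminal domain 13 fell and none rose. In the contrast with *glct2*, 25 of the 29 cysteine-rich kinases and 36 of the 67 TIR genes were lower in the overexpressor. The promoter of *CRK6* (chr4:12121119-12121368, plus strand) is shown because it holds a pair of W-boxes, the site of WRKY factors, in capitals:
CRK6: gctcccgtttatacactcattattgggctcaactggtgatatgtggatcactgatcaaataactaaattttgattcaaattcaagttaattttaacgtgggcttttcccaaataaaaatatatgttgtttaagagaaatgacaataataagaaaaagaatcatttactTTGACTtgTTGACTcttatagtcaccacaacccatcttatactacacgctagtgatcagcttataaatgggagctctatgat
The W-box was searched as TTGACC or TTGACT on both strands, and it stood in 38% of the windows of genes that fell, 27.7% of those that rose and 32.2% of all. It stood in 40.3% of the genes that fell by at least 1 and 24.7% of those that rose by at least 1. In the salicylic acid and defence list 8 of 26 windows held it, or 30.8%, which is below the share of all windows.

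**Figure D3:**
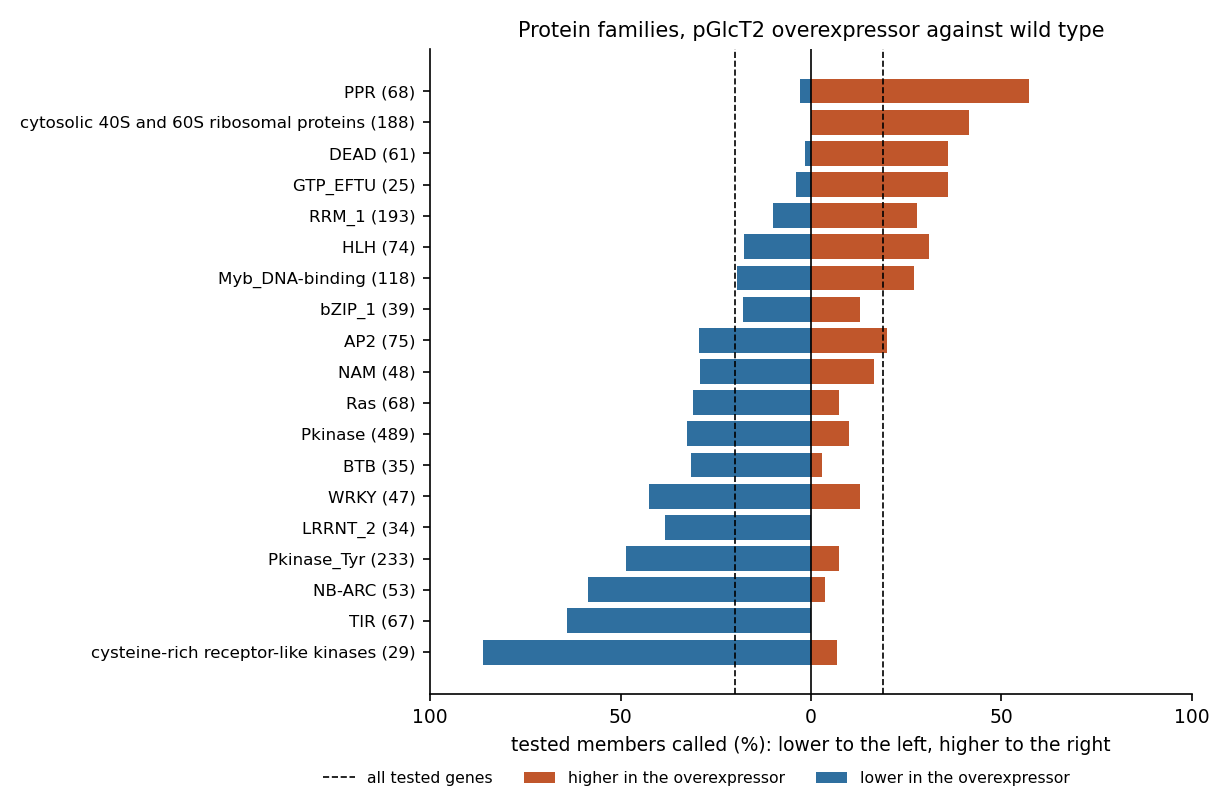
Share of tested genes called higher and lower in the overexpressor (x axis, percent) for gene families and groups (y axis), with the number tested in brackets and the shares over all tested genes as dashed lines. Cysteine-rich receptor-like kinases, TIR and NB-ARC genes lie on the lower side, and PPR, DEAD and cytosolic ribosomal protein genes on the higher side, beside 18.9% higher and 19.9% lower over all.

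Glucosinolate genes were lower in both branches. These sulfur-rich defence compounds are made from methionine or tryptophan. Of 11 tested genes of the indole branch 10 fell and none rose (median -0.88), and of 19 of the aliphatic branch 9 fell and none rose (median -0.42). *MYB51*, the regulator of the indole branch in leaves, had 4.89, 3.74, 4.94 and 4.23 FPKM in the overexpressor, against 18.8, 16.7, 14.4 and 14.7 FPKM in wild types. *CYP83B1*, which acts on the indole aldoxime, had 119, 116, 115 and 102 FPKM in the overexpressor, against 349.7, 358, 248 and 260.1 FPKM in wild types. The groups were apart in both (log2 fold changes -1.65 and -1.404, adjusted p = 7.0e-06 and 1.3e-05). *CYP81F2* and *IGMT1*, which modify the indole ring, fell, with log2 fold changes of -1.93 and -1.97, and *PEN2*, the myrosinase that activates the products in defence, with -0.71. In the aliphatic branch the chain-elongation gene *MAM3* had 10.1, 8.198, 5.097 and 6.47 FPKM in the overexpressor, against 25.3, 26.9, 18.4 and 28.6 FPKM in wild types (log2 fold change -1.63, adjusted p = 2.9e-05). *CYP83A1*, *SUR1* and *SOT17* of the core pathway fell by smaller amounts, with log2 fold changes of -0.59, -0.57 and -0.31. The aliphatic count of 9 was 5 without wild-type library 4. In the contrast with *glct2*, 10 of the 11 indole genes were lower in the overexpressor, whereas in the aliphatic branch 2 were lower and 1 higher.

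Of 23 tested jasmonate genes 5 rose, a share of 21.7% beside 18.9% of all tested genes, *TAT3* fell and 17 were not called (median 0.35). *VSP2* and *VSP1*, storage proteins that mark the jasmonate response, had 673, 1448, 1647 and 1433 FPKM in the overexpressor, against 155, 440.2, 56.6 and 20.5 FPKM in wild types for *VSP2* and 383, 623, 1299 and 1073 FPKM in the overexpressor, against 217, 409, 74.4 and 24.9955 FPKM in wild types for *VSP1*. The wild-type libraries spread widely, with library 2 highest, and for *VSP1* it overlapped with overexpressor library 1 (log2 fold changes 3.68 and 2.72, adjusted p = 0.0015 and 0.0081). The allene oxide cyclase *AOC2* of jasmonate synthesis averaged 681 ± 210.4 FPKM in the overexpressor and 265 ± 99.7 FPKM in wild types, and the jasmonate-induced *CORI3* averaged 672 ± 167 FPKM in the overexpressor and 333 ± 131 FPKM in wild types. The count of 5 was 10 without wild-type library 2. The single fall became 0 without overexpressor library 1 or wild-type library 1 or 2, and 2 without wild-type library 4. The bHLH factor *BHLH28*, a relative of the jasmonate factor MYC2, had 13.9, 15.3, 10.8 and 7.91 FPKM in the overexpressor, against 0.759, 1.71, 0.893 and 1.15 FPKM in wild types (log2 fold change 2.59, adjusted p = 3.9e-06).

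Sugar-signalling genes moved in both directions. Class II trehalose phosphate synthases are thought to act as regulators rather than enzymes. *TPS8* had 6.67, 7.65, 8.66 and 6.62 FPKM in the overexpressor, against 21.9, 23.8, 23.5 and 20.9964 FPKM in wild types, and *TPS11* had 2.196, 2.097, 2.604 and 2.96 FPKM in the overexpressor, against 11.2, 8.06, 16.5 and 13.1 FPKM in wild types. Both fell (log2 fold changes -1.49 and -1.90, adjusted p = 3.8e-07 and 5.9e-06), whereas *TPS5* rose, with 60.7, 49.3, 65.2 and 69.5 FPKM in the overexpressor, against 19.6, 24.5, 16.4 and 17.5 FPKM in wild types (log2 fold change 1.61, adjusted p = 5.8e-06). *BZIP11*, a factor whose translation sucrose represses, had 43.2, 46.7, 35.2 and 34.96 FPKM in the overexpressor, against 14.7, 12.8, 11.3 and 10.3 FPKM in wild types (log2 fold change 1.63, adjusted p = 3.1e-06), and its relative *BZIP44* rose by 1.402. *BZIP63*, a substrate of SnRK1, fell, with 2.82 ± 0.529 FPKM in the overexpressor against 8.16 ± 2.78 FPKM in wild types. *HXK2*, a hexokinase, rose by 0.81. Over the list 7 of 25 rose and 11 fell (median -0.15). Of these 18, 17 had libraries without overlap, beside 5661 of the 7001 genes called in all.

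Genes known to be induced by sugar starvation were mostly lower or not called. *SEN1*, a dark-induced gene, had 0.656, 0.269, 0.851 and 0.932 FPKM in the overexpressor, against 6.69, 8.998, 11.4 and 8.697 FPKM in wild types (log2 fold change -2.57, adjusted p = 1.1e-06), and *AKINBETA1*, a regulatory subunit of SnRK1, had 6.03, 6.303, 6.002 and 5.603 FPKM in the overexpressor, against 17.3, 15.71, 22.3 and 22.4 FPKM in wild types (log2 fold change -1.53, adjusted p = 2.1e-06). The beta-xylosidase *BXL1* and the raffinose synthase-like *DIN10* fell, with log2 fold changes of -2.67 and -1.65. Of 17 members 8 fell and *IVD*, isovaleryl-CoA dehydrogenase of leucine breakdown, rose (median -0.23). Without overexpressor library 2 the rises were 3 in place of 1.

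Among sugar carriers, invertases and sucrose synthases 5 of 29 rose and 10 fell (median -0.02). These are 17.2% and 34.5%, beside 18.9% and 19.9% of all tested genes. The plasma membrane hexose carrier *STP1* had 10.1, 16.4, 11.98 and 9.76 FPKM in the overexpressor, against 37.9, 30.2, 42.7 and 38.03 FPKM in wild types, and *ERD6*, a sugar carrier of the vacuole family, had 29.5, 28.6, 24.3 and 15.6 FPKM in the overexpressor, against 93.9, 73.03, 84.9 and 87.4 FPKM in wild types. Both fell without overlap (log2 fold changes -1.56 and -1.79, adjusted p = 9.7e-06 and 1.3e-05). The cell wall invertase *CWINV1* and the phosphoenolpyruvate carrier *PPT2* fell, with log2 fold changes of -1.73 and -1.84. In contrast, the vacuolar sugar importer *TMT2* had 43.9, 37.2, 53.6 and 63.6 FPKM in the overexpressor, against 18.1, 23.5, 18.5 and 16.9 FPKM in wild types, and the plastid ATP importer *NTT1* had 100.3, 80.4, 126 and 139 FPKM in the overexpressor, against 45.4, 51.4, 34.96 and 37.6 FPKM in wild types. These rose (log2 fold changes 1.304 and 1.36, adjusted p = 3.6e-05 and 5.4e-05), as did the sucrose synthase *SUS3*, by 1.60. Without overexpressor library 2 the count of rises was 9. *TMT2* and *NTT1* were above *glct2* as well (adjusted p = 1.1e-04 and 2.3e-04). Of the 8 tested genes of galactinol, raffinose and inositol synthesis 2 rose (25%) and 1 fell (12.5%), with a median of 0.22. The falls were 3 without overexpressor library 4. *MIPS1*, the first enzyme of inositol synthesis, had 437, 416, 402 and 489.9 FPKM in the overexpressor, against 197, 222, 163 and 195 FPKM in wild types (log2 fold change 1.17, adjusted p = 1.4e-05), *GOLS2*, a galactinol synthase of the stress response, rose by 1.06 with 1 overexpressor library inside the wild-type range, and the low-level *GOLS3* fell, with a log2 fold change of -1.01.

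**Figure D4:**
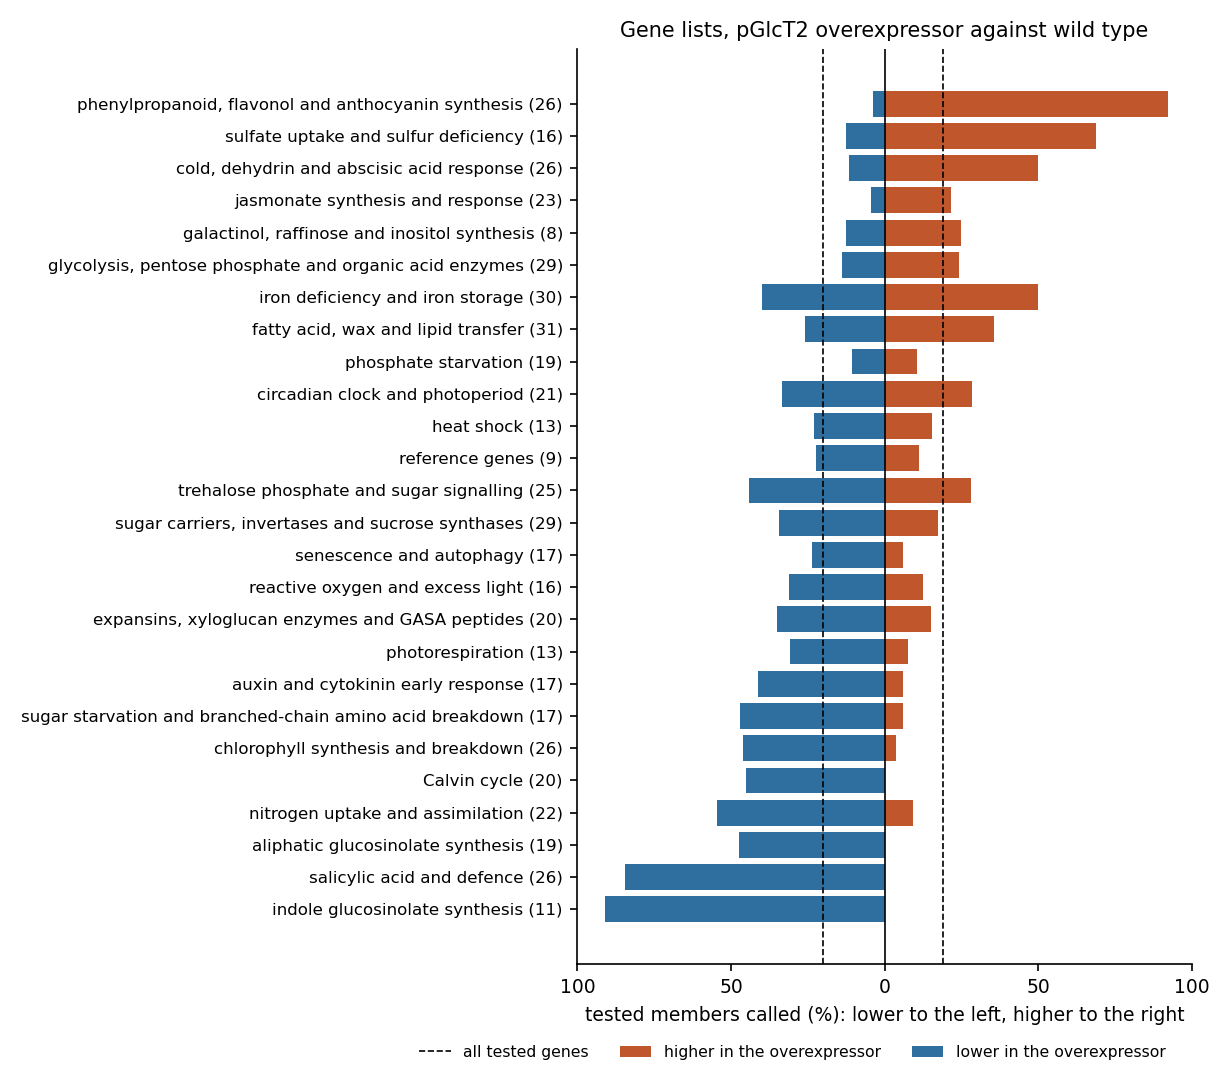
Share of tested members called higher (right) and lower (left) in the overexpressor for each gene list (x axis, percent), with the number tested in brackets and the shares over all tested genes as dashed lines. The flavonoid list has 24 of 26 members higher, the salicylic acid list 22 of 26 lower, and iron is split into 15 higher and 12 lower.

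In central metabolism the enzymes went both ways. Of 29 genes of glycolysis, the pentose phosphate pathway and organic acids 7 rose and 4 fell (median 0.03). These are 24.1% and 13.8%, beside 18.9% and 19.9% of all tested genes. *UGP1*, which makes UDP-glucose, averaged 142 ± 12.7 FPKM in the overexpressor and 87.2 ± 8.29984 FPKM in wild types (log2 fold change 0.70, adjusted p = 5.8e-05). The plastid glucose phosphate dehydrogenase *G6PD1* fell, with 36.97, 36.1, 34.4 and 32.5 FPKM in the overexpressor, against 61.3, 52.6, 68.3 and 66.6 FPKM in wild types, whereas the low-level *G6PD4* rose by 0.58. *NADP-ME2*, the cytosolic malic enzyme, fell to 154 ± 19.01 FPKM in the overexpressor against 341 ± 67.3 FPKM in wild types.

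Nitrogen assimilation was lower. Of 22 tested genes 12 fell and 2 rose (median -0.47). The nitrate transceptor *NRT1.1* had 31.5, 48.4, 21.7 and 23.97 FPKM in the overexpressor, against 101, 57.4, 76.1 and 91.4 FPKM in wild types (log2 fold change -1.39, adjusted p = 8.4e-04), and nitrate reductase *NIA1* had 16.9, 14.2, 22.7 and 16.1 FPKM in the overexpressor, against 35.03, 22.01, 56.2 and 42.7 FPKM in wild types (log2 fold change -1.06, adjusted p = 0.0045). For *NRT1.1* the groups did not overlap, and for *NIA1* overexpressor library 3 lay just above wild-type library 2. Glutamate synthase *GLT1* and glutamate dehydrogenase *GDH1* fell, with log2 fold changes of -0.81 and -1.01. The nitrate regulators *NLP7* and *LBD37* fell too, with log2 fold changes of -0.36 and -0.85 (adjusted p = 1.5e-04 and 8.3e-06). Of 19 phosphate starvation genes 2 rose and 2 fell (median 0.02). The rises were 1 when overexpressor library 1, 2 or 3 or wild-type library 1, 3 or 4 was left out, and the falls were 4 without overexpressor library 2. *PHO2*, which degrades phosphate carriers, rose to 112 ± 25.7 FPKM in the overexpressor against 54.8 ± 12.2 FPKM in wild types. *PS2*, a phosphatase induced by low phosphate, had 34.5, 33.7, 27.8 and 14.9 FPKM in the overexpressor, against 6.72, 26.1, 13.7 and 8.17 FPKM in wild types, with overlapping groups, and its call was lost in 7 of the alternatives. The phosphate exporter *PHO1* and the regulator *PHR1* fell, with log2 fold changes of -0.60 and -0.26.

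Carbon fixation and chlorophyll synthesis were lower, most of all at the entry of the tetrapyrrole pathway. *HEMA1*, the first committed enzyme of that pathway in leaves, had 15.72, 21.1, 17.1 and 20.9 FPKM in the overexpressor, against 135, 100.1, 168 and 182 FPKM in wild types. The overexpressor libraries were close to each other and far below wild types (log2 fold change -2.87, SE 0.21, adjusted p = 2.2e-06). *GUN5*, a subunit of magnesium chelatase, had 99.6, 142, 99.7 and 107 FPKM in the overexpressor, against 395, 310.2, 450.4 and 527 FPKM in wild types, and *PORB*, which reduces protochlorophyllide in the light, had 175, 215, 168 and 144 FPKM in the overexpressor, against 448, 393, 529 and 531 FPKM in wild types. Both were lower without overlap (log2 fold changes -1.89 and -1.44, adjusted p = 5.5e-05 and 3.7e-05). *CAO*, which makes chlorophyll b, fell, with a log2 fold change of -1.16. Of 26 genes of chlorophyll synthesis and breakdown 12 fell and *PPH*, pheophytinase of breakdown, rose (median -0.34). That 1 rise became 0 without overexpressor library 3 or 4 or wild-type library 3 or 4, and 2 without overexpressor library 2. In the Calvin cycle 9 of 20 fell and none rose (median -0.52), and with quantile normalization 3 members were called higher. *RPE*, ribulose phosphate epimerase, had 181, 197, 165 and 188 FPKM in the overexpressor, against 386, 325, 414 and 456 FPKM in wild types (log2 fold change -1.10, adjusted p = 6.0e-05), and *PRK*, *GAPA1* and *CP12-2*, which form a regulatory complex of the cycle, fell, with log2 fold changes of -0.62, -0.64 and -0.62. In photorespiration 4 of 13 genes fell (30.8%, beside 19.9% of all tested genes) and *GLDP1*, a subunit of glycine decarboxylase, rose (median -0.14). The 4 falls became 1 without overexpressor library 3 or wild-type library 4 and 2 without wild-type library 1, and *GLDP1* lost its call without overexpressor library 1 or 4 or wild-type library 3. The catalase of peroxisomes *CAT2* fell, with 161 ± 25.03 FPKM in the overexpressor and 262 ± 41.7 FPKM in wild types. Among 16 genes of reactive oxygen and excess light 5 fell and 2 rose, *ELIP1* and *GSTU24* (median -0.15), of which 1 was left without overexpressor library 1 or wild-type library 4. *CAT3*, another catalase, had 726, 752, 798 and 635 FPKM in the overexpressor, against 2388, 2348, 1898 and 2126 FPKM in wild types, and *SAPX*, the ascorbate peroxidase of stroma and mitochondria, had 10.1, 12.5, 10.3 and 13.7 FPKM in the overexpressor, against 51.3, 34.3, 49.1 and 54.8 FPKM in wild types (log2 fold changes -1.59 and -1.92, adjusted p = 4.9e-06 and 6.9e-06). The cytosolic *APX1* fell, with a log2 fold change of -0.78, and did not pass the test against *glct2* (log2 difference -0.03, SE 0.13, adjusted p = 0.89).

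Growth genes were lower on balance. Of 20 expansins, xyloglucan enzymes and GASA peptides 7 fell and 3 rose (median -0.27). These are 35% and 15%, beside 19.9% lower and 18.9% higher over all tested genes. *XTH24*, a xyloglucan endotransglucosylase, had 38.6, 28.3, 49.8 and 38.2 FPKM in the overexpressor, against 206, 218, 239 and 246 FPKM in wild types (log2 fold change -2.55, adjusted p = 1.1e-06). *XTH4* averaged 33.8 ± 6.43 FPKM in the overexpressor and 108 ± 51.1 FPKM in wild types. The expansin *EXPA1*, which loosens cell walls, had 33.5, 89.1, 23.7 and 19.5 FPKM in the overexpressor, against 107, 55.5, 135 and 112 FPKM in wild types, and overexpressor library 2 fell inside the wild-type range. The 3 rises, *EXPA10*, *EXPA15* and *GASA4*, were 1 without overexpressor library 4, wild-type library 1 or wild-type library 4. Of 17 genes of the early auxin and cytokinin responses 7 fell and 1 rose (median -0.26), and the 7 were 4 without overexpressor library 3 or without wild-type library 1, 3 or 4. The cytokinin response regulators *ARR4* and *ARR5* averaged 20.6 ± 11.2 and 1.06 ± 0.439 FPKM in the overexpressor and 52.6 ± 13.6 and 3.55 ± 1.72 FPKM in wild types. *CKX4*, a cytokinin oxidase, fell, with a log2 fold change of -1.49, and the auxin gene *IAA1* rose by 0.98 (adjusted p = 2.0e-04 and 8.0e-04). The growth-promoting bHLH factor *HBI1* had 9.52, 16.8, 7.58 and 4.01 FPKM in the overexpressor, against 33.6, 19.2, 42.3 and 33.2 FPKM in wild types (log2 fold change -1.75, adjusted p = 0.001).

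The flowering-time genes *FT*, *SOC1*, *FUL*, *MAF4* and *MAF5* rose, and the morning clock genes *LHY* and *RVE1* fell. FT, made in the phloem of leaves, is the mobile signal for flowering, and SOC1 and FUL act after it in the apex and in leaves. *FT* had 25.4, 19.9, 13.7 and 16.6 FPKM in the overexpressor, against 2.32, 1.48, 1.44 and 1.78 FPKM in wild types. Every overexpressor library was well above every wild-type library (log2 fold change 2.83, SE 0.18, adjusted p = 1.1e-06), and *FT* was also higher than in *glct2* (log2 difference 3.50, adjusted p = 7.9e-07). *SOC1* had 44.1, 40.1, 49.4 and 55.4 FPKM in the overexpressor, against 20.1, 27.3, 24.5 and 20.4 FPKM in wild types, and *FUL* had 12.8, 18.5, 16.3 and 20.1 FPKM in the overexpressor, against 6.53, 8.72, 5.805 and 4.46 FPKM in wild types (log2 fold changes 1.00 and 1.29, adjusted p = 3.3e-05 and 8.2e-05). *MAF5*, a MADS-box repressor of flowering of the FLC family, had 21.4, 19.6, 15.6 and 21.1 FPKM in the overexpressor, against 0.811, 2.07, 1.398 and 1.74 FPKM in wild types, and its neighbour *MAF4* averaged 3.66 ± 0.282 FPKM in the overexpressor and 1.03 ± 0.246 FPKM in wild types. Both rose (log2 fold changes 3.04 and 1.21, adjusted p = 2.1e-06 and 4.4e-05). In the clock list 6 of 21 rose and 7 fell (median 0.13), all 13 without overlap, beside 5661 of the 7001 genes called in all. *LHY*, a morning MYB factor, had 10.5, 11.6, 10.7 and 13.4 FPKM in the overexpressor, against 47.6, 39.1, 48.5 and 61.4 FPKM in wild types (log2 fold change -1.99, adjusted p = 1.5e-06), and its relative *RVE1* had 4.89, 4.59, 4.43 and 4.89 FPKM in the overexpressor, against 11.1, 8.42, 14.3 and 13.6 FPKM in wild types. The evening genes *ELF4* and *GI* rose by 1.26 and 0.73 (adjusted p = 5.0e-05 and 0.0013). The labels give no hour of harvest for these libraries. The study places the harvest of its growth experiment, continuous light included, at midday for each line.

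Heat shock and senescence genes showed no common direction. Of 13 tested heat shock genes 2 rose and 3 fell (median 0.06), with *HSP70* at 20.9, 26.3, 35.4 and 58.9 FPKM in the overexpressor, against 12.1, 17.9, 9.34 and 8.99 FPKM in wild types (log2 fold change 1.42, adjusted p = 0.0015), *MBF1C* at 0.87, and *HSFA7A* and *ROF2* at -0.64 and -0.33. Of 17 senescence and autophagy genes *SWEET15* rose and 4 fell (median -0.15), with 2 rises without wild-type library 2. The falls are 23.5% of the list, beside 19.9% of all tested genes. *NAP*, a NAC factor that promotes leaf senescence, had 5.098, 3.501, 11.2 and 9.81 FPKM in the overexpressor, against 25.6, 29.3, 21.7 and 23.8 FPKM in wild types, and *WRKY53* had 4.29986, 4.61, 3.94 and 6.09 FPKM in the overexpressor, against 17.8, 13.6, 11.5 and 10.6 FPKM in wild types. The NAC factor *ORS1* and the autophagy gene *ATG8E* fell as well, and all 4 were without overlap (log2 fold changes -1.74, -1.31, -0.98 and -1.10, adjusted p = 2.3e-04, 2.4e-04, 2.3e-05 and 1.1e-06).

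Genes of the translation machinery rose by small amounts. Of 188 tested genes of cytosolic 40S and 60S ribosomal proteins 78 rose and none fell, 180 had a positive log2 fold change, and the median was 0.26. *RPS9C*, the member with the largest rise, had 38.7, 31.6, 33.8 and 24.2 FPKM in the overexpressor, against 18.5, 15.6, 14.2 and 11.2 FPKM in wild types (log2 fold change 1.06, adjusted p = 4.5e-04). The groups did not overlap, and library 4 was the lowest of both groups. *RPL36A* averaged 51.1 ± 8.02 FPKM in the overexpressor and 30.6 ± 4.65 FPKM in wild types. The count of 78 was 40 without overexpressor library 1, 49 without overexpressor library 2, 42 without wild-type library 2 and 42 without wild-type library 4, and 43 when the 8 libraries were fitted alone. In contrast, of 48 genes of chloroplast-type 30S and 50S ribosomal proteins 3 rose and 4 fell. Genes of RNA-binding families rose too. Of 68 genes with a PPR domain, which mostly process organelle transcripts, 39 rose and *AT3G05230* and *PCMP-H29* fell, and of 61 with a DEAD helicase domain 22 rose and *RH6* fell. *RH26*, a DEAD helicase, had 43.5, 43.8, 34.2 and 22.9 FPKM in the overexpressor, against 15.69, 14.9, 17.02 and 12.2 FPKM in wild types, and *PCMP-E16*, a PPR protein, had 4.97, 5.68, 4.99 and 4.92 FPKM in the overexpressor, against 2.59, 2.84, 2.53 and 2.81 FPKM in wild types (log2 fold changes 1.18 and 0.73, adjusted p = 2.4e-04 and 5.5e-05). Against *glct2*, 33 PPR genes and 18 DEAD genes were higher in the overexpressor, but only 5 of the 188 cytosolic ribosomal protein genes were, with 3 lower. The promoter of *RPL36A* (chr2:15775375-15775624, minus strand) is shown for its telobox, AAACCCTA, a motif of ribosomal protein genes. It stands here on the opposite strand, so that the capitals read TAGGGTTT, 24 bases before the start:
RPL36A: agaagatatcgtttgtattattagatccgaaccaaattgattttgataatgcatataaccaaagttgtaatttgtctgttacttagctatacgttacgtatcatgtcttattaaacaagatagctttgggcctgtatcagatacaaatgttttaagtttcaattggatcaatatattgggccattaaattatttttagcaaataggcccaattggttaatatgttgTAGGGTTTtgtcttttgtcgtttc
The telobox was found in 47.3% of the windows of cytosolic ribosomal protein genes, in 8.61% of the windows of all genes that rose, 2.98% of those that fell and 5.61% of all. Among genes that rose by at least 1 on the log2 scale its share was only 2.56%, and 2.06% among those that fell by at least 1.

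**Figure D5:**
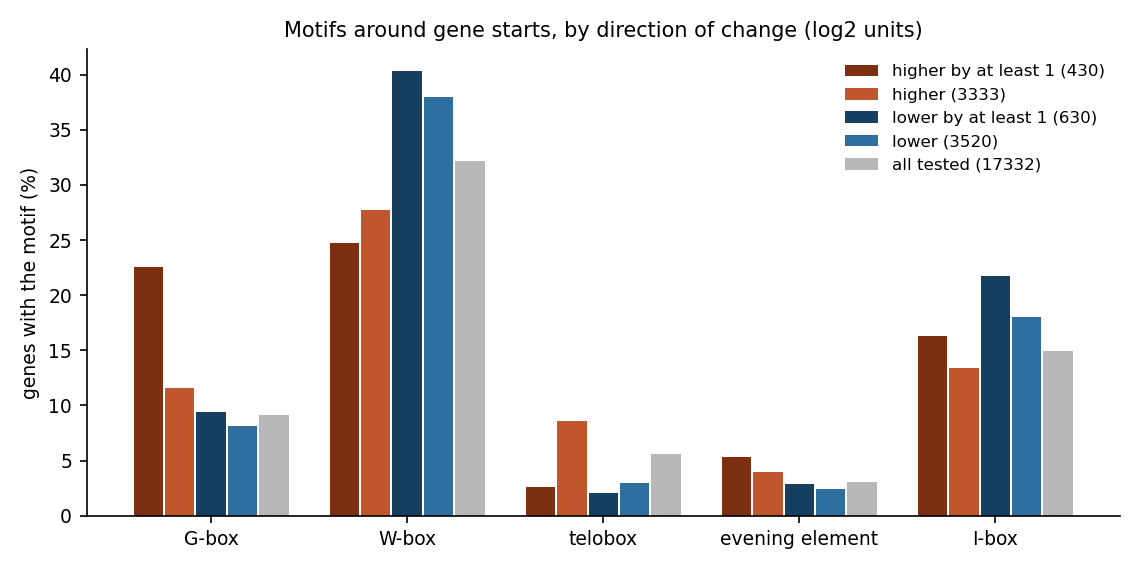
Share of promoter windows (250 bases before to 50 after the annotated start, y axis, percent) that hold each motif on either strand, for genes that rose, genes that fell and all tested genes, with the numbers in brackets. The G-box reaches 22.6% among genes that rose by at least 1 on the log2 scale, against 9.37% among those that fell by at least 1 and 9.09% of all.

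The remaining motifs were searched in the same way. Over the windows of 17332 protein-coding nuclear genes the evening element AAAATATCT was found in 5.35% of the genes that rose by at least 1, 2.86% of those that fell by at least 1 and 3.08% of all. The I-box GATAAG, which is common in light-regulated promoters, stood in 16.3% of the genes that rose by at least 1, 21.7% of those that fell by at least 1 and 14.9% of all. Without that minimum the evening element stood in 3.96% of rises and 2.39% of falls, and the I-box in 13.4% and 18%. The G-box then stood in 11.6% of rises and 8.18% of falls. These shares are descriptions of letters in the windows and were not tested.

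Transcription factor families were mixed. Of 47 WRKY genes 20 fell and 6 rose. The largest fall was *WRKY26*, with 3.21, 4.08, 3.22 and 1.89 FPKM in the overexpressor, against 14.3, 14.5, 11.3 and 13.8 FPKM in wild types (log2 fold change -1.84), and the largest rise was *WRKY44*, a factor of trichomes and tannins, by 1.07. Of 74 HLH genes 23 rose and 13 fell, of 118 MYB genes 32 rose and 23 fell, of 75 AP2 genes 15 rose and 22 fell, of 48 NAM genes 8 rose and 14 fell, and of 39 bZIP genes 5 rose and 7 fell. Their largest moves outside the genes above were *RAP2-9* at -2.01 and *ERF023* at 1.18 among AP2 genes, *NAC019* at 1.56 among NAM genes, and the MYB-domain gene At5g56840 at -2.15. The groups overlapped for *NAC019*, with wild-type library 2 at 22.1 FPKM and overexpressor library 1 at 19.6 FPKM. *ABF2*, a bZIP factor of abscisic acid signalling, had 36.2, 27.4, 43.8 and 78.98 FPKM in the overexpressor, against 16.6, 23.58, 15.97 and 16.99 FPKM in wild types, again with overexpressor library 4 highest and library 2 lowest (log2 fold change 1.21, adjusted p = 0.0021).

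By gene type, 3334 of 17402 protein-coding genes rose and 3530 fell, while 21 of 201 long non-coding RNAs rose and 19 fell. Of 22 genes of the mitochondrial genome *RRN18* rose and 3 fell. Each of the 5 nuclear chromosomes had 18.5 to 19.5% of its tested genes higher and 19.0 to 21.5% lower. Among 9 genes used as references for normalisation, 6 were not called. *ACT2* fell, with 148, 137, 132 and 138 FPKM in the overexpressor, against 243, 210.4, 257 and 242 FPKM in wild types (log2 fold change -0.77, adjusted p = 1.5e-05), and *UBQ10* fell, with a log2 fold change of -0.36. *EF1A4*, the reference of the study's semi-quantitative PCR, rose by 0.33. *UBQ10* was at 0.17 with quantile normalization, so its direction depended on the scaling.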

How the data were processed

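Leaf RNA libraries were sequenced by the authors, and the FPKM values were made by them before deposit, as fragments divided by gene length and by a library size. The submitters' processing notes list StringTie 1.3.3, HISAT2 2.0.5, fastp and, as genome, TAIR10. The program that counted fragments and its strand setting are not given in the sources used here, so overlapping genes and near-identical neighbours, such as *VSP1* and *VSP2*, *LTP3* and *LTP4* or the defensin-like pair, may share fragments. The 3 deposited columns of means equalled the means of the libraries and were not used, and 0 further columns of values were left unmapped. FPKM multiplied by gene length came in whole steps, within 0.01 of a step for all values, from which reads were recovered for totals and for an alternative. The library sizes behind these steps were 1.02 to 1.06 times the recovered reads in the overexpressor and 0.927 to 0.987 times in wild types. The deposited values were thus scaled beyond plain totals.

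With limma 3.58.1 (R 4.3.3), log2(FPKM + 1) of all 12 libraries was modelled by genotype (eBayes with trend, 9 residual degrees of freedom, two-sided, Benjamini and Hochberg over 18021 genes, threshold 0.05, no minimum fold). A pseudocount of 1 understates the fold change of low genes. The members and the 26 gene lists, with 570 members of which 529 were tested and 41 lay below the filter, were chosen with earlier results of these data known. Lists are described by counts and medians without a list test. Named genes were taken by rule (*pGlcT2*, the 15 largest rises and 15 largest falls without overlap and with a group mean of at least 5 FPKM, up to 4 members per list by smallest p, the extremes of 6 factor families), which gave 134. Photosystem and starch genes were passed over by this rule. A further 53, and members that only complete a small count (such as *ATPS1*, *TAT3*, *IVD*, *PPH*, *GSTU24*, *TSO2* and *RRN18*), were chosen after their values were seen. The 53 were *RAB18*, *RD29B*, *HAI1*, *COR15A*, *CHS*, *PAP1*, *DFR*, *FER1*, *FER4*, *BTS*, *CSD2*, *PR1*, *ICS1*, *SOC1*, *FUL*, *NRT1.1*, *PPT2*, *CWINV1*, *SUS3*, *EXPA1*, *CER1*, *WSD1*, *GI*, *LSU2*, *SULTR1.2*, *UF3GT*, *TT8*, *WRKY38*, *DLO1*, *CYP81F2*, *HXK2*, *NIA1*, *MAF5*, *MAF4*, *CRK6*, *CRK4*, *CRK29*, *CRK28*, *AT5G45490*, *RPP8L3*, *AT4G19060*, *PCMP-E16*, *RPS9C*, *RH26*, *BZIP44*, *ABF2*, *BHLH28*, *FIT*, *AT3G04210*, *RH6*, *AT3G05230*, *PCMP-H29* and *RPL36A*. Promoter windows were cut from the TAIR10.1 genome of RefSeq at the deposited gene coordinates, which equalled those of RefSeq for 99.989% of the matched genes. Tested on simulated data with 17779 genes, the comparison of the overexpressor with wild types recovered 24 of 66 genes changed by 0.5, 63 of 65 changed by 1 and 65 of 65 changed by 2 on the log2 scale, with 15 unchanged genes called. The simulation gave every gene the same small spread, changed few genes and kept wild-type means in the knock-out libraries. It therefore does not measure recovery or false calls for genes with a wide spread within a group, such as *RAB18*. Alternatives were a filter at 5 FPKM or none, a pseudocount of 0.1 or 5, 3 scalings, the 8 libraries alone, a replicate block, limma voom on recovered reads, a minimum fold and leaving out each library. Limma voom with the deposited library sizes was added after seeing the data. Tables and figures were made with Python 3.11.15, pandas 2.3.3, numpy 2.4.6 and matplotlib 3.10.9.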

Additional observations from a re-analysis of the deposited data

Results flagged for a closer look

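In 24 of the 374 groups of 4 libraries looked at for the named genes, 1 library stood apart, with a gap to its nearest neighbour that took most of the range of the group. For independent values from a normal distribution, chance alone does this in about 1 group in 20. Whether FPKM values of these genes follow such a distribution was not tested. The share of the range taken by the gap is given for each, and no cause was tested.

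In the overexpressor, library 4 was low for *BHLH38* (0.859) and *BZIP63* (0.907) and high for *PAP2* (0.866), *CHS* (0.865), *CSD2* (0.873) and *MBF1C* (0.835). *CHS* there had 817, 712, 795 and 1492 FPKM. Library 2 was high for the thionin gene AT1G66100 (0.946), *CKX4* (0.838), *GUN5* (0.835) and *PCMP-E16* (0.903), and library 3 was low for *SUR1* (0.935). In wild types, library 1 was high for *DTX18* (0.843), *GDH1* (0.909) and *WRKY38* (0.860). Library 2 was high for *ABI2* (0.925), *GI* (0.865), *BZIP44* (0.833) and *ABF2* (0.866) and low for the NB-ARC gene AT5G45490 (0.843). Library 3 was high for *SWEET15* (0.905) and *XTH25* (0.921) and low for *GLDP1* (0.843), and library 4 was high for *CYP83A1* (0.844) and *FIT* (0.959). Of the 24, 6 fell in overexpressor library 4 and 5 in wild-type library 2.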

How the results depend on the processing

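The 3408 rises and 3593 falls became 5750 and 2382 with limma voom on the recovered reads scaled to plain totals, where 70.7% of the called genes were higher, and 444 and 658 with a minimum log2 fold change of 1. With limma voom at the deposited library sizes they were 3389 and 3594. Leaving out 1 library gave 2651 to 3542 rises and 3065 to 3658 falls. The 78 rises of cytosolic ribosomal protein genes became 149 with limma voom on plain totals, 43 with the 8 libraries alone and 40 to 115 without 1 library. *UBQ10* was at 0.17 with quantile normalization. Median-of-ratios factors were 1 in all libraries, since the deposited values already carried such a scaling, so this alternative could change no call. The near-even split of rises and falls rests on that scaling. Of 3535 recomputed values of the 187 named genes, 3478 kept direction and call, 56 kept the direction but not the call and 1 reversed, *UBQ10*. The 56 belonged to 17 genes, among them *RD29B* (12 settings), *GGT1*, *PS2* and *AT4G19060* (7 each) and *COR15A* (5). The replicate block gave 3182 rises and 3402 falls, and *RD29B* lost its call. The numbers do not pair the libraries: correlations of same-numbered libraries were 0.15, -0.34, -0.11 and -0.06, and 1 of 4 overexpressor libraries was closest to its own number. Few replicates and the depth limit what can be said of genes near 1 FPKM, where 1 read is worth 0.0425 to 0.0553 FPKM in a gene of 1 kilobase.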

Other observations

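Protein families outside the lists also leaned one way. Of 193 tested genes with the RNA-recognition motif RRM_1 54 were higher in the overexpressor and 19 lower, and of 25 with the GTP-binding domain of translation factors 9 were higher and 1 lower. Of 68 genes of Ras-type small GTPases, which direct vesicle traffic, 21 were lower and 5 higher, and of 35 BTB genes, which include ubiquitin ligase adaptors, 11 were lower and 1 higher. Cytochrome P450 genes went both ways, with 39 of 120 higher and 30 lower, as did the genes of the sugar transporter family, with 12 of 43 higher and 15 lower. Of 57 microRNA genes above the expression minimum 6 were higher and 5 lower, and of 100 small nucleolar RNA genes 8 were higher and 5 lower. Over all tested genes 18.9% were higher and 19.9% lower. These groups were picked after their counts were seen and were not tested.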
